A study of Mus musculus with 9 samples.

Results

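The genes described here carry fatty acids into heart muscle, burn them in mitochondria and set how much lipid enters that route. The module holds 32 genes, chosen by name, and a gene was followed where a probe set of the array carried its symbol and no other; 31 of the 32 met that rule, of 19938 genes measured in the same way. Ucp2 was the exception and is not analysed here, nor is Cpt1b, the muscle form of carnitine palmitoyltransferase, which is not among the 32. Of several such probe sets for a gene, that of highest mean signal stood for it. This choice arose for Fabp3 and Hadhb, whose 2 probe sets differed by at most 0.13 and 0.05 log2 units on an array.

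The hearts came from C57BL/6 mice at 24 hours, 7 days and 10 weeks after birth, with 3 Affymetrix Mouse Gene 1.0 ST arrays of total cardiac RNA for each age. The labels mention no engineered allele and no treatment, and age is the factor by which they separate the groups. A Y-linked gene also sets the 10-week arrays apart, as given below. The labels give neither sex nor whether a replicate is a separate animal or a pool, and p-values therefore measure the spread between these RNA samples, which may in part be technical. All values are log2 signals as the authors deposited them, and a difference of 1 is a doubling of signal.

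In the heart, long-chain fatty acids are released from circulating triglyceride by lipoprotein lipase, cross the membrane with help from CD36, and bind FABP3 in the cytosol. After activation to acyl-CoA they pass the mitochondrial membranes as carnitine esters, and a repeating cycle of dehydrogenation, hydration, dehydrogenation and cleavage shortens them to acetyl-CoA. The newborn heart turns from glucose and lactate towards fatty acids as its main fuel once milk feeding begins, and PPARα with its partner RXR and the coactivator PGC-1α is the best known transcriptional control of that programme.

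The mean log2 signal of 12 cardiomyocyte genes lay between 11.66 and 11.77 on all 9 arrays, although 4 of them were called higher and 4 lower at 10 weeks than at 24 hours. Markers of other cells moved more. The mean over 10 of 12 liver genes was 5.43 on 7-day replicate 2, against 4.68 to 4.99 on the remaining arrays. That over 11 endothelial genes was 8.86 to 8.96 at 7 days, against 8.68 to 8.78 at the other ages. Brown fat transcripts stood out on 7-day replicates 2 and 3, general fat transcripts on 7-day replicate 2 and less so on 7-day replicate 3 and at 10 weeks, and airway transcripts on 24-hour replicate 1 and 7-day replicate 2, where Scgb1a1 read 5.83 and 6.83 against 2.49 to 2.76 on the remaining arrays. The mean over 7 atrial genes was 8.7 to 9.3 at 24 hours, 9.36 to 9.84 at 7 days and 6.08 to 7.56 at 10 weeks. That over 10 fibroblast genes was 9.3 to 9.53, 9.93 to 10.28 and 8.60 to 8.84 at these ages. That over 9 macrophage genes was 6.4 to 6.58, 6.97 to 7.04 and 7.84 to 8.02. These markers thus shifted in the first week too. Called higher at 7 days than at 24 hours were 5 of 10 fibroblast and 6 of 9 macrophage genes. So were 4 of 11 endothelial and 1 of 7 atrial genes, beside 5.27% of all genes. None of these markers was called lower in that week. The Y-linked gene Eif2s3y read 2.87 to 3.30 at 10 weeks and 6.06 to 7.70 on the 6 younger arrays, so age cannot be told apart from a difference in the sex of the animals. In whole heart RNA, fewer cells of a type and less RNA per cell cannot be told apart either. The part of these markers in the differences below was not tested, except that fits without the 7-day arrays rich in fat transcripts are given.

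Most of the change in the module came after the first week. In limma's fit over all 9 arrays, with Benjamini-Hochberg adjustment over all 19938 genes and a call at an adjusted p under 0.05, 8 of the 31 genes were higher and 2 lower at 7 days than at 24 hours, where 5.27% of all genes were called higher and 4.81% lower, 10.1% in all. At 10 weeks against 7 days 16 were higher and 8 lower, against 17.0% and 18.9% of all genes, 35.9% together. At 10 weeks against 24 hours 19 were higher and 7 lower, against 19.5% and 20.6% of all genes, 40.1% together. The median log2 difference of the 31 was 0.0044 in the first week and 0.26 from 7 days to 10 weeks, beside -0.0017 and 0.04 over all genes. None of the differences called among the 31 in these 3 comparisons had overlapping groups of arrays. The share of called differences without overlap over all genes is not given, so this describes the calls and is no trait of the module. The balance over all genes depended on the scaling. In the first week 1050 genes were called higher and 959 lower (52.3% of calls higher), against 888 and 1247 (41.6%) with each array centred on its median; from 7 days to 10 weeks 3388 were higher and 3777 lower (47.3%), against 5247 and 3307 (61.3%).

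**Figure D1:**
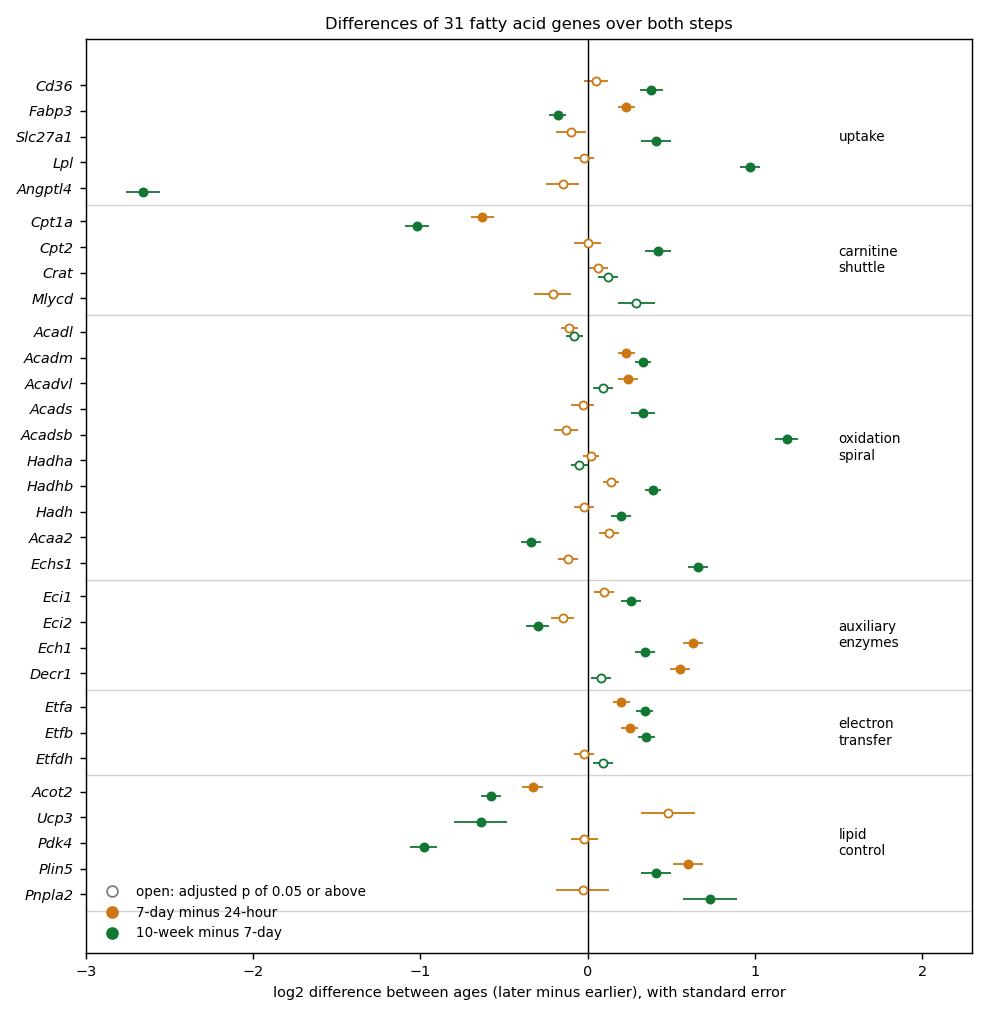
Log2 differences of the 31 genes with standard errors, ordered by role, for 7-day minus 24-hour (orange) and 10-week minus 7-day (green); open points were not called. Angptl4 stands far to the left at -2.66 in the second step, while most oxidation enzymes lie a little right of 0.

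Uptake changed at its lipase step. Lpl, which encodes lipoprotein lipase, read 11.11, 11.13 and 11.01 at 24 hours, 11.00, 11.05 and 11.13 at 7 days and 12.03, 11.94 and 12.13 at 10 weeks. The first 2 ages overlapped and the 10-week arrays lay above every younger one, by 0.97 ± 0.06 log2 units against 7 days (difference ± standard error, as for all differences below; limma adjusted p = 6.37e-07), a 1.96-fold increase. Angptl4, a secreted inhibitor of that lipase, read 8.67, 8.61 and 8.67 at 24 hours, 8.55, 8.62 and 8.32 at 7 days and 5.77, 6.06 and 5.67 at 10 weeks. Here too the young ages overlapped, and at 10 weeks the signal fell by 2.66 ± 0.10 against 7 days (adjusted p = 4.79e-08), the largest difference of any gene of the module and a signal 6.34 times lower. The 10-week mean of Angptl4, 5.83, lay near the median level of all genes at that age, 5.52, so that fold rests on a low signal. Lipase and inhibitor thus moved apart over the same interval, and each lay outside the range of the younger arrays at 10 weeks.

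The transporters changed by less. Cd36, the membrane carrier of long-chain fatty acids, read 11.86, 11.68 and 11.95 at 10 weeks, against 11.45, 11.43 and 11.47 at 7 days, a rise of 0.38 ± 0.07 (adjusted p = 0.000964). Slc27a1, the fatty acid transport protein FATP1, rose by 0.41 ± 0.09 over the same interval (adjusted p = 0.00536). Its difference of 0.31 ± 0.09 between 10 weeks and 24 hours (adjusted p = 0.0228) was lost without any of the 24-hour arrays or without 10-week replicate 1 (adjusted p 0.0538 to 0.0813). Fabp3, the cytosolic carrier of heart and muscle, followed another course. It read 12.45, 12.50 and 12.54 at 24 hours, 12.78, 12.69 and 12.70 at 7 days and 12.61, 12.51 and 12.52 at 10 weeks. Its 7-day arrays were the highest and did not overlap with those of either other age: it rose by 0.23 ± 0.05 in the first week (adjusted p = 0.0108) and fell by 0.18 ± 0.05 afterwards (adjusted p = 0.0114). The rise was not called without 24-hour replicate 1 (adjusted p = 0.0506) or with quantile normalization (0.14, adjusted p = 0.0527), nor the fall with array medians centred (-0.12, adjusted p = 0.0619).

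**Figure D2:**
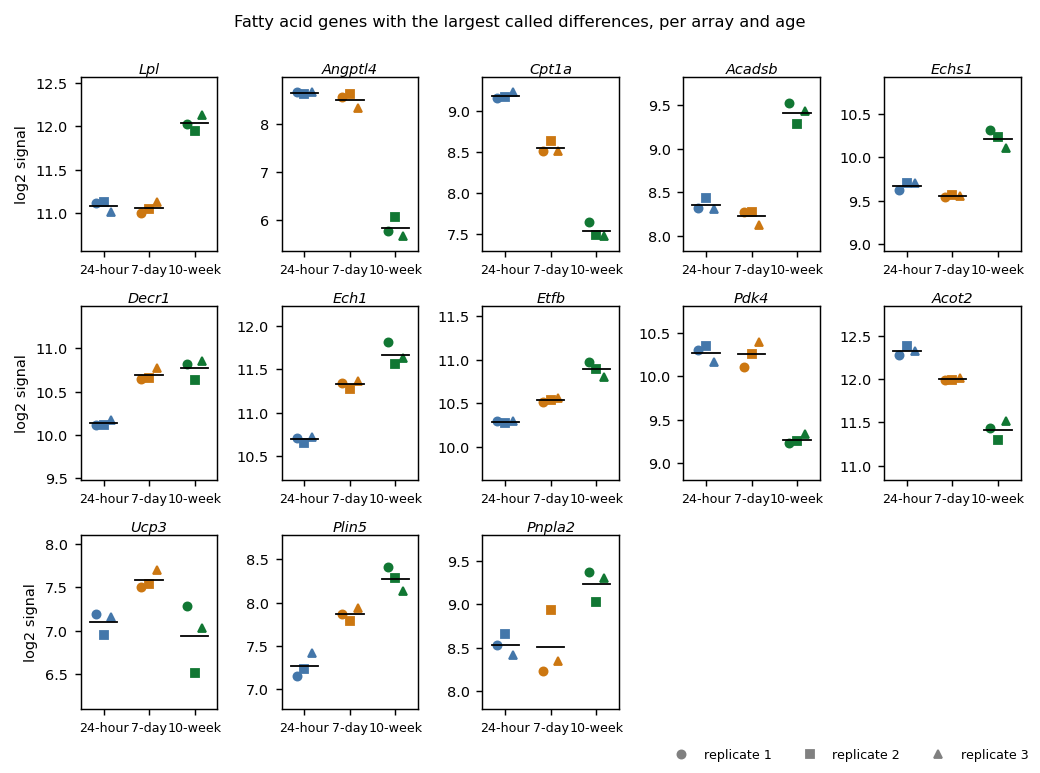
Log2 signal on each array (symbols mark the replicate number, bars the mean of 3 arrays) at 24 hours, 7 days and 10 weeks for the 13 genes with the largest called differences; each panel has its own axis. Lpl, Acadsb and Echs1 step up only at 10 weeks, Cpt1a and Acot2 step down at both ages, and Pnpla2 has 1 high 7-day array.

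At the carnitine shuttle the early isoform declined. Cpt1a, the form of carnitine palmitoyltransferase that predominates in liver and, in the rat, contributes in the newborn heart, read 9.16, 9.17 and 9.24 at 24 hours, 8.51, 8.64 and 8.51 at 7 days and 7.65, 7.49 and 7.47 at 10 weeks. Each age lay wholly below the one before it. The signal fell by 0.63 ± 0.07 in the first week (adjusted p = 0.000226) and by 1.02 ± 0.07 after it (adjusted p = 9.55e-07), which left the 10-week mean 3.14 times lower than the 24-hour mean. Cpt2, the enzyme that regenerates acyl-CoA inside the inner membrane, moved the other way: it read 9.59, 9.43 and 9.58 at 10 weeks, against 9.01, 9.22 and 9.11 at 7 days, a rise of 0.42 ± 0.08 (adjusted p = 0.00259).

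Crat, carnitine acetyltransferase, which exports acetyl groups, was called only between 10 weeks and 24 hours, at 0.18 ± 0.06 (adjusted p = 0.0299). That call was lost when any of 4 arrays was left out, with adjusted p between 0.0741 and 0.105 in fits lacking replicate 1 or 2 of 24 hours or replicate 1 or 3 of 10 weeks. Mlycd, malonyl-CoA decarboxylase, which removes the inhibitor of CPT1, was called in none of the 3 comparisons. Its difference of 0.29 ± 0.11 between 10 weeks and 7 days (adjusted p = 0.063) passed the threshold without 7-day replicate 1 (0.38, adjusted p = 0.0195) or 10-week replicate 2 (0.38, adjusted p = 0.0243). It also did so with array medians centred (0.0271), quantile normalization (0.0215), the replicate block (0.0129) and the filter on low signals (0.0383), with the adjusted p in brackets.

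The enzymes of the oxidation cycle mostly rose, but not together. Of 10, 2 were called higher in the first week, 6 higher and 1 lower from 7 days to 10 weeks. That is 20.0% and 70.0% called, beside 10.1% and 35.9% of all genes. Among the 5 acyl-CoA dehydrogenases of the module, which start each round and differ in the chain length they accept, Acadsb moved most. It encodes the short and branched chain form, which also serves isoleucine breakdown, and read 8.32, 8.43 and 8.31 at 24 hours, 8.27, 8.27 and 8.12 at 7 days and 9.53, 9.28 and 9.44 at 10 weeks. The 10-week arrays stood clear of the rest by 1.19 ± 0.07 against 7 days (adjusted p = 7.54e-07), a 2.29-fold rise.

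Acadm, the medium chain enzyme, rose in both steps, by 0.23 ± 0.05 (adjusted p = 0.0226) and by 0.33 ± 0.05 (adjusted p = 0.000762). Acadvl, the very long chain enzyme, rose by 0.24 ± 0.06 in the first week (adjusted p = 0.0269), with 10.63, 10.60 and 10.64 at 7 days, against 10.40, 10.30 and 10.46 at 24 hours, and by an uncalled 0.09 ± 0.06 after it. These first-week calls were narrow. Leaving out 24-hour replicate 1 or 2 or 7-day replicate 2 or 3 gave Acadm an adjusted p of 0.052 to 0.0975. For Acadvl it was 0.0571 to 0.117 without 24-hour replicate 1 or 2 or any of the 7-day arrays. Acads, the short chain enzyme, rose by 0.33 ± 0.07 from 7 days to 10 weeks (adjusted p = 0.00448). Acadl, the long chain enzyme, was, of the 5 acyl-CoA dehydrogenases of the module, the one called lower at 10 weeks than at 24 hours, by -0.18 ± 0.05 (adjusted p = 0.0141; 0.058 without 24-hour replicate 3), and it was called in neither single step.

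Further along the cycle, Echs1, the short-chain enoyl-CoA hydratase, read 9.62, 9.70 and 9.70 at 24 hours, 9.54, 9.57 and 9.56 at 7 days and 10.31, 10.23 and 10.11 at 10 weeks. Its 10-week arrays were the highest and its rise after the first week was 0.66 ± 0.06 (adjusted p = 8.05e-06). Hadh, the short-chain hydroxyacyl-CoA dehydrogenase, rose by 0.20 ± 0.06 over that interval (adjusted p = 0.0234), a call lost without 7-day replicate 1 or 3 or 10-week replicate 1 (adjusted p 0.0718 to 0.0859) and with quantile normalization (0.13, adjusted p = 0.119). Its difference of 0.18 ± 0.06 between 10 weeks and 24 hours (adjusted p = 0.0376) was lost when replicate 1 or 2 of the 24-hour arrays, replicate 3 of the 7-day arrays, or replicate 1 or 2 of the 10-week arrays was left out, with adjusted p of 0.055 to 0.146, and with quantile normalization (0.156) or the replicate block (0.0597). Acaa2, the thiolase that closes the cycle, went down: it read 11.28, 11.10 and 11.19 at 10 weeks, against 11.51, 11.49 and 11.59 at 7 days, a difference of -0.34 ± 0.06 (adjusted p = 0.000662).

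The trifunctional protein of the inner membrane joins 3 activities of the cycle in an α subunit, encoded by Hadha, and a β subunit, encoded by Hadhb. The pair was singled out after its values were seen. Hadhb read 11.30, 11.20 and 11.26 at 24 hours, 11.41, 11.37 and 11.41 at 7 days and 11.84, 11.69 and 11.83 at 10 weeks. Hadha read 11.91, 11.88 and 11.90 at 24 hours, 11.92, 11.92 and 11.92 at 7 days and 11.90, 11.77 and 11.92 at 10 weeks. The β subunit's 10-week arrays lay above all others, a rise of 0.39 ± 0.05 against 7 days (adjusted p = 0.00012), whereas the α subunit's 10-week arrays overlapped with those of both younger ages and its difference from 7 days was -0.05 ± 0.05 (adjusted p = 0.398). With quantile normalization that difference of Hadha was called, at -0.13 (adjusted p = 0.0326). The log ratio of β to α on the same array was 0.45 higher at 10 weeks than at 7 days, with no overlap between the ages; an exact two-sided permutation test gave p = 0.1, the smallest that 3 arrays against 3 allow.

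These 2 genes are transcribed away from each other, with 272 bases between their annotated first bases on mouse chromosome 5 in RefSeq's GRCm38.p6 annotation, so the stretch upstream of one is in large part the stretch upstream of the other. It is printed below to show that shared region, next to the 250 bases upstream of Acadm and Echs1, which rose, and of Cpt1a, which fell. All windows are from RefSeq's GRCm38.p6 and run 5′ to 3′ on the strand of the gene; capitals mark the hexamer AGGTCA or its reverse complement TGACCT, the core element to which nuclear receptors such as PPARα-RXR and the ERRs bind.
Hadhb upstream, chr5:30155003-30155252, plus strand: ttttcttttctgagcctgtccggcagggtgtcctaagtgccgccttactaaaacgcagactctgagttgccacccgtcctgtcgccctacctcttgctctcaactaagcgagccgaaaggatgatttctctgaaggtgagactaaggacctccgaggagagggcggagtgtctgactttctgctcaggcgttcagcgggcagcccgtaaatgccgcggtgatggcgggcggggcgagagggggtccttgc
Acadm upstream, chr3:153944644-153944893, minus strand: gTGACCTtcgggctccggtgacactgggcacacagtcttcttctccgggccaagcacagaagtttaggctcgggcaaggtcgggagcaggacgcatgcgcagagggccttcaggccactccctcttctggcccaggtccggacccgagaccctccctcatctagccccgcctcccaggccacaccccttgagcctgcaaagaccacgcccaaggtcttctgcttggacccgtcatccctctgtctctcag
Echs1 upstream, chr7:140116422-140116671, minus strand: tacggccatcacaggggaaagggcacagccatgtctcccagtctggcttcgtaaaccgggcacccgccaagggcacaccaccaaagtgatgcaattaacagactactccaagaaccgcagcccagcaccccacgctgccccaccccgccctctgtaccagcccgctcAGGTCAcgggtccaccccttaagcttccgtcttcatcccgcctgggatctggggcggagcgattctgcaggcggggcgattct
Cpt1a upstream, chr19:3323051-3323300, plus strand: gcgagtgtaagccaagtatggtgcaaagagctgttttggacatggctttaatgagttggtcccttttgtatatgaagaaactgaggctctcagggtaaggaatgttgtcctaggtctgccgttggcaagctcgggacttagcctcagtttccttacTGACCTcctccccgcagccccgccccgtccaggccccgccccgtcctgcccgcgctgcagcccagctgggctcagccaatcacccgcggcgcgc

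The hexamer stood 249 bases before the start of Acadm, 83 before that of Echs1 and 94 before that of Cpt1a, and nowhere in the Hadhb window. Windows were found for 26 of the 31 genes, 29 windows in all, and 7 of the 29 held the hexamer on either strand, those of Acadm, Acadvl, Cd36, Cpt1a, Echs1, Plin5 and Ucp3; of all 32851 windows of that length 14.0% held it. The 7 genes include ones that rose and ones that fell. The direct repeat AGGTCANAGGTCA, which contains the hexamer on both sides of 1 free base, was in 0 of the 29 windows and in 0.0335% of all, and the extended form TCAAGGTCA was in 0 of the 29 and in 0.387% of all. A match is a run of letters, and its absence says only that the letters are not in this window.

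The auxiliary enzymes, which bring the double bonds of unsaturated fatty acids into line for the cycle, split in the first week: Ech1 and Decr1 rose, and Eci1 and Eci2 were not called. Ech1, a dienoyl-CoA isomerase, read 10.71, 10.65 and 10.72 at 24 hours, 11.34, 11.27 and 11.37 at 7 days and 11.81, 11.56 and 11.63 at 10 weeks. It climbed at each age without overlap, by 0.63 ± 0.06 (adjusted p = 0.000189) and then by 0.34 ± 0.06 (adjusted p = 0.00146). Decr1, dienoyl-CoA reductase, read 10.12, 10.12 and 10.17 at 24 hours, 10.64, 10.65 and 10.77 at 7 days and 10.82, 10.63 and 10.85 at 10 weeks. Its rise was called in the first week, at 0.55 ± 0.06 (adjusted p = 0.000503), and the 2 later ages overlapped, with an uncalled difference of 0.08 ± 0.06.

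The enoyl-CoA isomerases Eci1 and Eci2 parted. Eci1, the mitochondrial one, read 10.25, 10.04 and 10.08 at 10 weeks, against 9.84, 9.85 and 9.89 at 7 days, a rise of 0.26 ± 0.06 (adjusted p = 0.00573). Eci2, which also works in peroxisomes, read 9.70, 9.52 and 9.44 at 10 weeks, against 9.92, 9.78 and 9.86 at 7 days, a difference of -0.30 ± 0.07 (adjusted p = 0.00694).

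Electrons from the acyl-CoA dehydrogenases pass to the electron transfer flavoprotein, a dimer of the products of Etfa and Etfb, and from it to ubiquinone through the enzyme encoded by Etfdh. Etfb read 10.30, 10.27 and 10.29 at 24 hours, 10.52, 10.54 and 10.56 at 7 days and 10.97, 10.90 and 10.80 at 10 weeks. It rose at each age without overlap, by 0.25 ± 0.05 (adjusted p = 0.0094) and 0.35 ± 0.05 (adjusted p = 0.000257). Etfa rose by nearly the same amounts, 0.20 ± 0.05 and 0.34 ± 0.05 (adjusted p = 0.0415 and 0.000558). Among the first-week calls of the 31 genes that of Etfa was lost most often, in 12 of 20 alternatives, among them the fits that left out any of the 24-hour arrays, replicate 2 or 3 of the 7-day arrays, or replicate 1 of the 10-week arrays (adjusted p 0.0504 to 0.153). Etfdh was called in none of the comparisons, with differences of -0.02 ± 0.06 and 0.09 ± 0.06.

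Among the genes that govern lipid use, those that rose belong to the lipid droplet. Plin5, which coats droplets in oxidative tissue, read 7.15, 7.23 and 7.42 at 24 hours, 7.87, 7.79 and 7.94 at 7 days and 8.41, 8.28 and 8.13 at 10 weeks. Each age lay above the previous one, by 0.60 ± 0.09 (adjusted p = 0.00189) and 0.41 ± 0.09 (adjusted p = 0.00415). Pnpla2, adipose triglyceride lipase, which opens triglyceride breakdown in droplets, read 8.53, 8.66 and 8.42 at 24 hours, 8.23, 8.93 and 8.35 at 7 days and 9.37, 9.03 and 9.30 at 10 weeks. The 10-week arrays were the highest, by 0.73 ± 0.16 against 7 days (adjusted p = 0.00487), although 7-day replicate 2 lay close to the lowest of them.

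The other 3 genes of lipid control, Pdk4, Acot2 and Ucp3, were called lower at 10 weeks than at 7 days. Pdk4, a kinase that inhibits pyruvate dehydrogenase and so spares glucose, read 10.30, 10.35 and 10.16 at 24 hours, 10.11, 10.26 and 10.39 at 7 days and 9.23, 9.25 and 9.33 at 10 weeks. The young ages overlapped and the 10-week signal was lower by -0.98 ± 0.08 (adjusted p = 3.41e-06). Acot2, a mitochondrial thioesterase that frees fatty acids from CoA, read 12.27, 12.38 and 12.32 at 24 hours, 11.99, 11.99 and 12.01 at 7 days and 11.43, 11.30 and 11.51 at 10 weeks. It fell at each age without overlap, by 0.33 ± 0.06 (adjusted p = 0.00388) and 0.58 ± 0.06 (adjusted p = 1.52e-05). Its value is uncertain in that Acot1, the cytosolic paralog, is nearly identical in sequence and probes may read both; the Acot1 probe set fell by 0.82 ± 0.10 and 1.83 ± 0.10 over the same steps.

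Ucp3, the muscle uncoupling protein, read 7.19, 6.95 and 7.16 at 24 hours, 7.51, 7.54 and 7.70 at 7 days and 7.29, 6.51 and 7.03 at 10 weeks. Its 7-day arrays were the highest. The first-week difference of 0.48 ± 0.16 was not called (adjusted p = 0.101; 0.0129 without 10-week replicate 2, which enters through the shared estimate of spread). The later difference of -0.64 ± 0.16 was (adjusted p = 0.0107), and it shrank to -0.42 without 10-week replicate 2, the lowest array.

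Fat transcripts were high on 7-day replicates 2 and 3. Ucp1, the uncoupling protein of brown fat, read 4.30, 11.23 and 9.27 on 7-day replicates 1, 2 and 3, against 4.09 to 4.27 at 24 hours. Adipoq, the fat cell hormone adiponectin, read 3.91, 7.71 and 5.33 on those arrays, against 3.75 to 3.78 at 24 hours. The mean over 10 of 11 brown fat genes was 5.19 to 6.30 at 7 days, against 5.11 to 5.19 at 24 hours, and that over 10 of 11 general fat genes was 5.63 to 7.08 at 7 days, against 5.50 to 5.53 at 24 hours. At 10 weeks the brown fat mean was 5.28 to 5.35 and the general fat mean 5.82 to 6.23. Of 10 general fat genes 3 were called higher and 0 lower than at 24 hours, beside 19.5% and 20.6% of all genes. Pnpla2, Plin5, Cd36 and Lpl had their highest means at 10 weeks. They are among the 19 genes of the module called higher at 10 weeks than at 24 hours. Ucp3, Fabp3, Acaa2 and Hadha had their highest means at 7 days. That of Ucp3 was 7.58, against 7.10 at 24 hours and 6.95 at 10 weeks. The brown and general fat means were highest on 7-day replicate 2, at 6.30 and 7.08. The part of fat tissue in these differences was not tested. Pnpla2, a gene of fat as well as muscle, had its highest 7-day reading on replicate 2, the array with the most fat transcript.

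Without 7-day replicates 2 and 3, which leaves 1 array at 7 days that is assumed to vary as the other ages do, 2 genes were called higher in the first week, Ech1 at 0.64 (adjusted p = 0.0178) and Decr1 at 0.50 (adjusted p = 0.0378), and 1 lower, Cpt1a at -0.68 (adjusted p = 0.0151). Plin5 kept its size at 0.60 with an adjusted p of 0.0697, Acadvl kept 0.24 (0.256) and Etfb 0.23 (0.197). Acadm was at 0.20 (0.315), Fabp3 at 0.28 (0.0765), Acot2 at -0.34 (0.102), and Etfa at 0.11 (0.57), with the adjusted p in brackets. From 7 days to 10 weeks the difference of Pnpla2 was 1.01 (adjusted p = 0.00244) in that fit, and those of Hadh, Eci1, Ucp3 and Plin5 were no longer called, at 0.25, 0.29, -0.56 and 0.40. Lpl, Angptl4, Cpt1a and Pdk4 were called in it at 1.03, -2.72, -0.98 and -0.84.

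**Figure D3:**
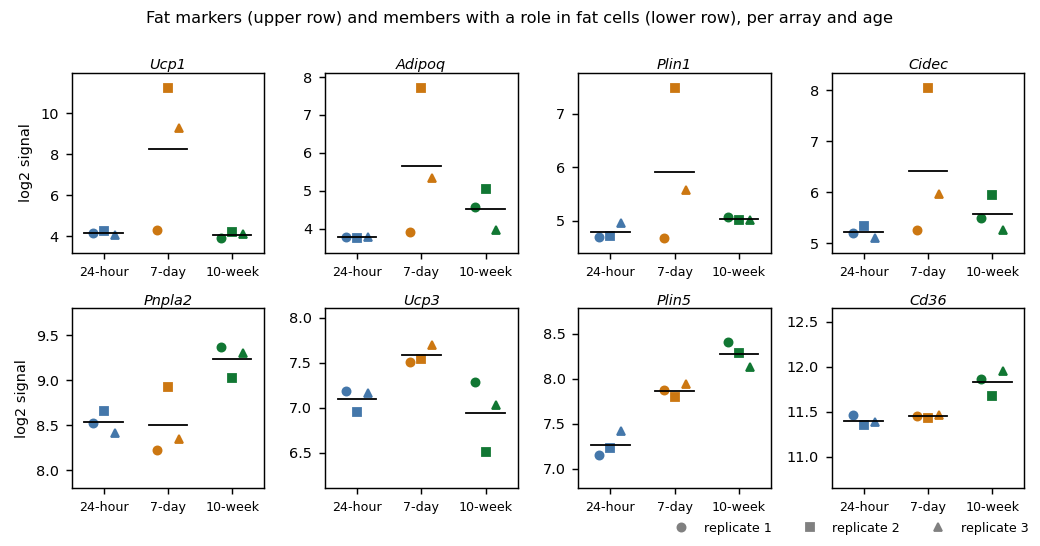
Log2 signal on each array (symbols mark the replicate number, bars the mean of 3 arrays) by age for 4 fat genes (upper row) and 4 genes of the module that fat cells also use (lower row); each panel has its own axis. Ucp1 reads 11.23 and 9.27 on 7-day replicates 2 and 3, and Pnpla2 peaks among 7-day arrays on replicate 2, while Plin5 and Cd36 show no such peak. The 7-day arrays of Ucp3 lie above those of both other ages.

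An adult array sat low. At 10 weeks replicate 2 held the lowest of the 3 readings for 21 of the 31 genes and replicate 1 the highest for 23, with median deviations from the age mean of -0.093 and 0.081; over all genes replicate 2 was lowest for 35.4%. The spread at 10 weeks is thus shared among the genes of the module, which are not independent of each other.

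Of the genes that regulate lipid metabolism, 3 of 28 were higher and 5 lower in the first week, and 13 higher and 6 lower from 7 days to 10 weeks, 28.6% and 67.9% called beside 10.1% and 35.9% of all genes. Ppara, the receptor PPARα, read 6.97, 7.25 and 7.06 at 24 hours, 7.39, 7.58 and 7.44 at 7 days and 8.06, 8.05 and 7.96 at 10 weeks, rising by 0.38 ± 0.08 (adjusted p = 0.0141) and 0.55 ± 0.08 (adjusted p = 0.000309). Rxrg, a partner receptor, read 4.57, 4.37 and 4.63 at 24 hours, 6.66, 6.66 and 6.70 at 7 days and 8.22, 8.42 and 8.25 at 10 weeks, a gain of 2.15 ± 0.08 and then 1.62 ± 0.08 (adjusted p = 2e-06 and 1.87e-07). Neither gene's ages overlapped. The 24-hour readings of Rxrg lay below the median level of all genes at that age, 5.55, so its first gain starts from a low signal. Ppargc1a, the coactivator PGC-1α, moved in the other direction, with 10.46, 10.59 and 10.45 at 24 hours, 10.22, 10.21 and 10.24 at 7 days and 9.97, 10.00 and 10.13 at 10 weeks, lower by -0.28 ± 0.06 and -0.19 ± 0.06 (adjusted p = 0.0131 and 0.0246).

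Further regulators took other courses. Lpin1, a phosphatidate phosphatase that also acts as a coactivator of PPARα, rose by 1.57 ± 0.08 from 7 days to 10 weeks (adjusted p = 2.46e-07), and Nr1d1, the clock repressor REV-ERBα, by 1.93 ± 0.09 (adjusted p = 1.57e-07). Esrrg, the orphan receptor ERRγ, was lower by -0.48 ± 0.08 at 7 days than at 24 hours and higher by 0.72 ± 0.08 at 10 weeks than at 7 days; Klf15, a factor of cardiac lipid handling, showed the same turn, with -0.57 ± 0.15 and 1.49 ± 0.15. Esrra, the related receptor ERRα, rose by 0.37 ± 0.12 in the later step (adjusted p = 0.0376). Its ages overlapped there, with 7.61 on 7-day replicate 1 and 7.56 on 10-week replicate 3. Prkag2, a regulatory subunit of AMP-activated kinase, fell by 1.57 ± 0.09 (adjusted p = 4.4e-07).

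**Figure D4:**
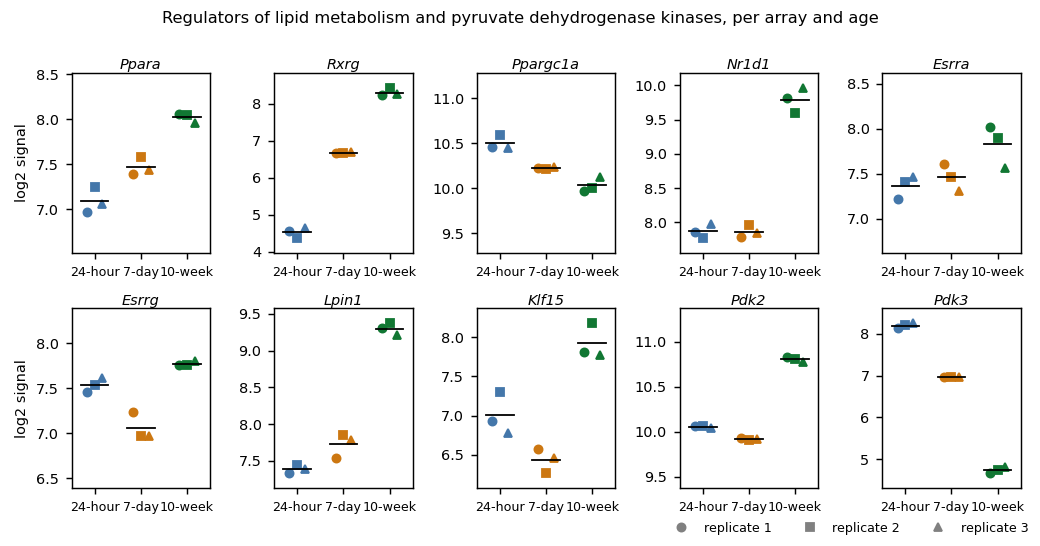
Log2 signal on each array (symbols mark the replicate number, bars the mean of 3 arrays) by age for 8 regulators of lipid metabolism and the pyruvate dehydrogenase kinases Pdk2 and Pdk3; each panel has its own axis. Rxrg and Ppara climb at each age, Ppargc1a and Pdk3 descend, and Esrrg and Klf15 dip at 7 days.

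Around pyruvate dehydrogenase, where glucose and fat compete, the kinases did not move as a group. Pdk4 was called lower only after the first week, as given above, while Pdk3 read 8.13, 8.20 and 8.25 at 24 hours, 6.97, 6.96 and 6.96 at 7 days and 4.66, 4.75 and 4.81 at 10 weeks. It dropped at each age without overlap, by -1.23 ± 0.06 and -2.22 ± 0.06 (adjusted p = 4.2e-06 and 1.14e-08). The 10-week readings of Pdk3 lay below the median level of all genes at that age, 5.52, so the later size rests on a low signal. Pdk2 rose by 0.88 ± 0.04 from 7 days to 10 weeks (adjusted p = 1.08e-07), and so did the phosphatase Pdp2, which reactivates the complex, by 1.60 ± 0.11, and the pyruvate carrier Mpc1, by 0.83 ± 0.11. Of the 9 genes of that list 7 were higher and 1 lower at 10 weeks than at 7 days, 88.9% called beside 35.9% of all genes.

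Beyond the 31, 14 of 23 other enzymes of acyl-CoA breakdown rose and 1, Acot1, fell from 7 days to 10 weeks. That is 65.2% called, beside 35.9% of all genes. In the first week 1 of these enzymes rose, Acad11, and 3 fell, Acot1, Ivd and Mmut, 17.4% called beside 10.1% of all genes. In the later interval Acad12 rose by 2.58 ± 0.08, Ivd, the isovaleryl-CoA dehydrogenase of leucine breakdown, by 1.85 ± 0.08, and Acad11 by 1.34 ± 0.05. Mmut, methylmalonyl-CoA mutase, which serves odd-chain fatty acids and branched amino acids, rose by 0.97 ± 0.06. Several of these, like Acadsb, work in amino acid breakdown as well as or in place of fatty acid oxidation. Of 18 peroxisomal genes 5 were higher and 13 not called over that interval, 27.8% called beside 35.9% of all genes, with Phyh, which starts the breakdown of phytanic acid, at 0.81 ± 0.05 and Scp2, a peroxisomal thiolase and carrier, at 0.70 ± 0.07.

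Genes of entry and storage were mixed. Of 14 further genes of fatty acid entry 3 rose and 2 fell in the first week, 35.7% called beside 10.1% of all genes. From 7 days to 10 weeks 3 rose and 2 fell too, 35.7% called beside 35.9% of all genes. Acsl6, an acyl-CoA synthetase, rose by 1.34 ± 0.08, Acacb, the acetyl-CoA carboxylase that makes malonyl-CoA at mitochondria, by 0.75 ± 0.07, and Vldlr, a receptor that brings triglyceride-rich particles to the cell, by 0.58 ± 0.06. Fabp5, the epidermal binding protein, fell by 1.61 ± 0.11. Gpihbp1, the anchor that holds lipoprotein lipase on capillaries, rose in the first week instead, by 0.66 ± 0.13 (adjusted p = 0.00826). Vldlr and Fabp4 were also called higher in that week, at 0.34 ± 0.06 and 0.35 ± 0.09. Acsl4 and Acacb were called lower in it, at -0.51 ± 0.12 and -0.33 ± 0.07. Of 26 genes of lipid synthesis and storage 4 rose and 2 fell in the first week, 23.1% called beside 10.1% of all genes. After it 5 rose and 9 fell, 53.8% called beside 35.9% of all genes. Scd2, a fatty acid desaturase, fell by 1.00 ± 0.09 and 2.05 ± 0.09 in the 2 steps, while Dgat2, which makes triglyceride, rose by 1.51 ± 0.14 and Fitm2, a droplet-forming protein of the endoplasmic reticulum, by 1.04 ± 0.09 in the later one. Of 17 genes known to respond to PPARs and not counted among the 31, 4 rose in the first week and 5 rose and 2 fell later (23.5% called beside 10.1% of all genes, then 41.2% beside 35.9%), with the carrier Slc25a34 up by 1.21 ± 0.07.

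The pathways that take up the products of oxidation rose in part over the same later interval. In the first week 1 of 18 TCA cycle genes rose and 3 fell, and 7 of 35 genes of oxidative phosphorylation rose and 1 fell. That is 22.2% and 22.9% called, beside 10.1% of all genes. Of 18 genes of the TCA cycle 9 were higher and 9 not called at 10 weeks against 7 days, with Suclg2, a subunit of succinyl-CoA ligase, at 0.73 ± 0.05 and Ogdh, the core enzyme of the oxoglutarate dehydrogenase complex, at 0.58 ± 0.06. Of 35 genes of oxidative phosphorylation 20 were higher and 15 not called, with the muscle-type cytochrome oxidase subunit Cox7a1 at 1.03 ± 0.09. From 7 days to 10 weeks the median log2 differences were 0.26 for the 31 fatty acid genes, 0.13 for the TCA cycle and 0.21 for oxidative phosphorylation. These lists were not tested against each other. From 7 days to 10 weeks the fatty acid list counted 8 falling genes of 31, beside 18.9% of all genes called lower. The TCA cycle and oxidative phosphorylation lists had none called lower, and that contrast between lists was not tested.

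**Figure D5:**
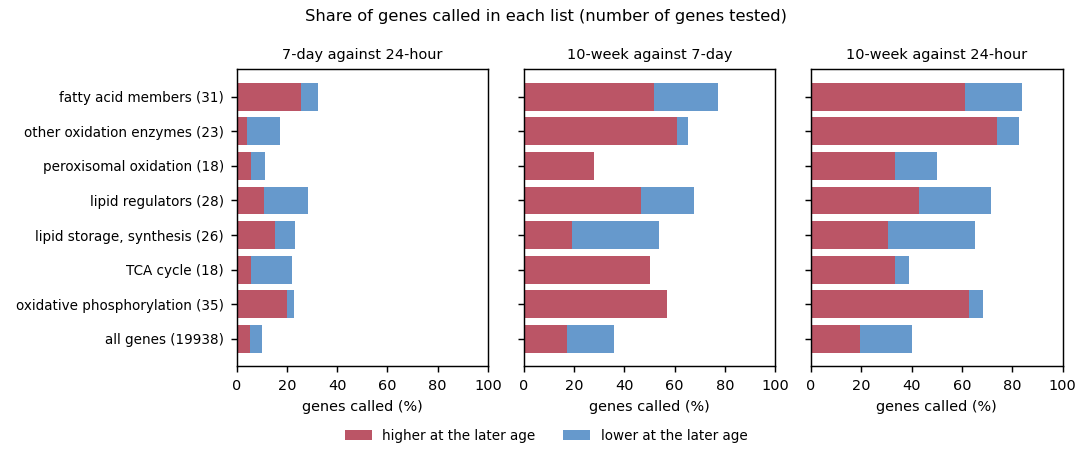
Share of genes called higher (red) and lower (blue) at the later age in each list and among all 19938 genes, for 3 comparisons; the number of genes tested stands in brackets. From 7 days to 10 weeks 16 of 31 fatty acid genes were higher and 8 lower, while the bars of the TCA cycle and of oxidative phosphorylation are red alone.

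Taking both steps together, 5 genes rose in both, namely Acadm, Ech1, Etfa, Etfb and Plin5, and Cpt1a and Acot2 fell at both. Acadvl and Decr1 were called higher in the first week and not after it; the steps differed for Decr1 and were not shown to differ for Acadvl (-0.14, adjusted p = 0.382). The most common course, in 11 genes, was no call in the first week and a rise after it. Courses were counted for the 31 genes only. Over all genes 10.1% were called in the first week and 35.9% after it, so later calls were the more common there too. The second step differed from the first, by limma's test of that difference itself, for 11 of the 31, where 18.9% of all genes differed (8.12% with a positive and 10.7% with a negative difference). It exceeded the first by 1.32 ± 0.13 for Acadsb (adjusted p = 6.83e-05), 0.99 ± 0.10 for Lpl, 0.78 ± 0.10 for Echs1 and 0.51 ± 0.16 for Slc27a1. The same quantity, second step less first, was -2.52 ± 0.18 for Angptl4, -1.12 ± 0.28 for Ucp3 and -0.96 ± 0.13 for Pdk4. It was -0.47 for both Acaa2 and Decr1, -0.40 for Fabp3 and -0.38 for Cpt1a. The intervals differ in length, so these are differences in size and not in rate. That of Slc27a1 (adjusted p = 0.0494) was lost without any array other than replicate 2 of 7 days or of 10 weeks, with adjusted p up to 0.193 without 7-day replicate 1, and also with no intensity trend (0.0514), every probe set as a feature (0.0503) or the replicate block (0.0887). That of Cpt1a (0.0381) was lost without any array other than 24-hour replicate 3 or 10-week replicate 1, with adjusted p up to 0.171 without 7-day replicate 2, and also with array medians centred (0.0825), quantile normalization (0.0718) or the replicate block (0.0706). Those of Decr1 and Ucp3 were lost without 7-day replicate 3 (0.0843 and 0.0936), and that of Ucp3 also without 7-day replicate 2 (0.0535).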

How the data were processed

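Total RNA from hearts of 3 ages was hybridised to 9 arrays, 3 per age, and the deposited table holds log2 intensities for 35556 probe sets, from 1.853 to 13.583. Per the submitters' processing notes the authors used MAS5 5.0; how probes were summarised and normalized is not stated in the labels, and array medians lie within 0.048 of each other. No depth exists for arrays, and their number limits the precision. Genes were named through GEO's platform annotation, with symbols updated by Entrez ID where it matched (21698 of 21789 probe sets with 1 symbol); 1621 probe sets with several symbols and 12146 not listed there were left out. No filter on low values was applied.

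A mean for each age was estimated from the 9 arrays in limma 3.58.1 under R 4.3.3 (lmFit, eBayes with an intensity trend, 6 residual degrees of freedom), on 19938 genes, with Benjamini-Hochberg adjustment and a call at an adjusted p under 0.05. The fit was tested on simulated data. Python 3.11.15 drew figures and searched promoter windows. Alternatives were the variance prior, the arrays fitted, the scaling, a low-signal filter, the choice of probe set, a threshold of 0.01, the replicate number as a block, and leaving out arrays.

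The members and gene lists were chosen with earlier results of these data known, so counts over them are descriptions. Every member could be named. Values on every array are given for members among the 4 largest called rises or falls of a comparison, and further lists name up to 4 genes with the largest called difference per comparison, plus genes fixed by name; per-array values of other members, and the Hadha and Hadhb pair, were chosen after their values were seen.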

Additional observations from a re-analysis of the deposited data

How the results depend on the processing

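Counts of genes of the module stayed within 1.5 times of the main count under most alternatives. In the first week, where 8 were higher and 2 lower, 4 were higher at an adjusted p under 0.01, and without 7-day replicates 2 and 3 it was 2 higher and 1 lower, a fit with fewer arrays; leaving out each array in turn gave 4 to 9 higher and 2 lower. The steps differed for 11 genes, for 7 at 0.01 and for 5 without those 2 arrays, and for 7 to 13 over the fits that left out an array. From 7 days to 10 weeks, leaving out single arrays gave 15 to 18 higher and 8 lower, and from 24 hours to 10 weeks 16 to 19 higher and 6 to 7 lower. No called difference changed sign. Of the called differences of single genes between ages, 1130 stayed called and 70 did not over all alternatives, and of the uncalled 649 stayed so and 11 became called; with the differences between the steps included, 104 calls were lost and 34 gained. Over all genes the first-week counts of 1050 higher and 959 lower were 516 and 437 at 0.01, 265 and 251 without the 2 arrays, and as low as 593 and 547 without a single one; from 7 days to 10 weeks, 1865 and 2291 without the 2 arrays, against 3388 and 3777. Replicate numbers did not pair the samples (correlations of -0.174 to 0.133 for the same number, -0.216 to 0.25 for others); with the replicate block 915 genes were higher and 819 lower in the first week. The cause of these changes was not tested.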
